A study of Mus musculus with 6 samples.

Results

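The mitochondrial ribosome and respiratory chain genes were followed here as occupied sites of the zinc finger repressor KLF3 and of 2 altered forms of it. Members were the peaks whose nearest gene carries a name starting with Mrpl, Mrps, Nduf, Uqcr or Atp5, or with Cox and a digit. The table of all peaks held 22188 regions, of which 110 were members, assigned to 72 gene names. There were 45 members annotated as promoter, each at a different gene, and 65 elsewhere, of which 33 were intergenic, 28 intronic, 2 in a 5′ UTR and 2 in a 3′ UTR.

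Mitochondrial ribosomes translate the few proteins that mitochondrial DNA still encodes, and these join nuclear-encoded subunits in the complexes of the inner membrane. Complex I (Nduf genes) takes electrons from NADH, complex III (Uqcr) passes them to cytochrome c, complex IV (Cox) hands them to oxygen, and the ATP synthase (Atp5) uses the resulting proton gradient. All proteins of the mitochondrial ribosome are encoded in the nucleus, and most genes of both kinds are active in all cell types. KLF3 binds GC-rich KLF motifs and recruits the corepressor CtBP.

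All cells were Klf3-/- murine embryonic fibroblasts (MEFs) of the C57BL/6 strain, grown in culture, so that no group carried endogenous KLF3. They were rescued by retroviral delivery with Klf3-V5, with ΔDL-V5, where AS replaces DL in the motif that contacts CtBP, or with DBD-V5, which lacks the N-terminal domain and keeps the zinc fingers and a putative nuclear localization signal. Each rescued line was a stable clone held under puromycin, so a difference between proteins cannot be told apart from a difference between clones. Chromatin was immunoprecipitated with an anti-V5 antibody in 2 replicates per protein, each with an input, and a peak had to be found in both replicates of at least 1 protein to enter the table. Peak height is the log2 number of tags in 400 bp, both replicates combined, per 100 M tags. There is 1 height per protein, so differences in height have no replicate error and no test. Even coverage of the genome would give 15.1 normalised tags in 400 bp. The tag totals to which the lists were scaled ran from 1.77 M for ΔDL replicate 1 to 18.1 M for KLF3 replicate 2, and the combined KLF3 heights rest on 23.3 M, those of ΔDL on 11.8 M and those of DBD on 16.0 M. These totals lie well below the mapped reads of each library and are not in a constant ratio to them, and the step between them is not given in the sources used here.

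To show what the sites look like, the central 100 bp of the highest KLF3 promoter peak in each class of genes is given from the mm9 genome, plus strand, 5′ to 3′. The genes encode proteins of the large (Mrpl19) and small (Mrps18b) ribosomal subunit, subunits of complex I (Ndufb4), complex III (Uqcrq), complex IV (Cox5a) and the ATP synthase (Atp5d), and Cox17, the copper chaperone for complex IV assembly. Capitals mark the KLF core, which is CACCC or CGCCC with an A or a C before it, on either strand. Where another CC came before the core, the longer KLF motif was met and is in capitals too.
Mrps18b, chr17:36053377-36053476: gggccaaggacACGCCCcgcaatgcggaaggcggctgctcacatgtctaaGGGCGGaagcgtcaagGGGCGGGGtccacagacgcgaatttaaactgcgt
Mrpl19, chr6:81915939-81916038: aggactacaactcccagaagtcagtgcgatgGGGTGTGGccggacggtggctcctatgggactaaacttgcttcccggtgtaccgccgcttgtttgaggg
Cox17, chr16:38346930-38347029: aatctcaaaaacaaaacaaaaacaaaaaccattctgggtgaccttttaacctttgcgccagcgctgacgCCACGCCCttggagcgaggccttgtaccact
Atp5d, chr10:79604226-79604325: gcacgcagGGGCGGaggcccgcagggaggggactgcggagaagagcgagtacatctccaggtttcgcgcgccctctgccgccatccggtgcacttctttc
Cox5a, chr9:57368889-57368988: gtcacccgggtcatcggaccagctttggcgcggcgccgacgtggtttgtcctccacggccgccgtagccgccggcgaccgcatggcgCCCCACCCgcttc
Ndufb4, chr16:37654537-37654636: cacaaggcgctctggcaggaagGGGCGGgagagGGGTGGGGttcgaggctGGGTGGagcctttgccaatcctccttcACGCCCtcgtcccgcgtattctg
Uqcrq, chr11:53244359-53244458: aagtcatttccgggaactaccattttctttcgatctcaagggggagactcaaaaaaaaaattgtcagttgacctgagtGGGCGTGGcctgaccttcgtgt
All of these stretches held at least 1 KLF core, and all but the one at Atp5d also held the longer motif.

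KLF3 occupied 44 of the 171 protein-coding genes of the family at their promoter, or 25.7% (95% Wilson interval 19.8 to 32.8, counting error only). Over all 22238 protein-coding genes of the annotation the share was 17.5%. That total was not limited to genes active in these fibroblasts, and a comparison with active genes only was not made. By class the counts were 10 of 47 genes for the large ribosomal subunit, 9 of 30 for the small subunit, 9 of 38 for complex I, 3 of 8 for complex III, 2 of 18 for complex IV, 5 of 18 for the ATP synthase and 5 of 11 for assembly factors. The remaining occupied promoter was named Cox4nb, which matches the naming rule but encodes no subunit of the chain. Its peak lay within 1000 bp of the start of Cox4i1, a complex IV subunit gene on the other strand. With KLF3 replicate 2 alone the family share was 49.1% against 29.4% of all genes, and with replicate 1 alone 28.1% against 20.8%.

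The family promoters as a whole had ordinary KLF3 heights, with Mrps18b near the top of all promoter peaks. Heights at the 45 promoters ran from 6.55 to 10.37 with a median of 8.18, which is 290.0 normalised tags, and the median member stood at percentile 42.3 among all 4452 promoter peaks. The median over all promoter peaks was 8.32. Mrps18b was the highest, with a height of 10.37 in KLF3, 10.20 in ΔDL and 7.16 in DBD, and in all 3 proteins it stood above percentile 98. Start sites of Mrps18b and of Ppp1r10, on the other strand, lay within 1000 bp of the centre of this peak, and it cannot be given to either gene alone. Cox17 came next with 9.45 for KLF3, 9.74 with ΔDL and 8.0 with DBD. Mrpl19 had 9.43, 9.90 and 6.58 in the same order. Both of these stood higher for ΔDL than for KLF3, by 0.29 and 0.47 on the log2 scale. Atp5d, an ATP synthase subunit, had 9.22 for KLF3 and 9.13 for ΔDL against 6.23 for DBD, and its peak centre lay 784 bp upstream of the start site. A start site of Dos, on the other strand, also lay within 1000 bp of this centre. Of the other promoters among the 10 highest, Mrpl40 had a KLF3 height of 9.14, Cox5a 8.88, Mrpl1 8.78, Ndufb4 8.77, and Mrps33 and Cox4nb 8.75 each. The Mrpl40 peak also lay within 1000 bp of a start site of Hira, on the other strand.

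**Figure D1:**
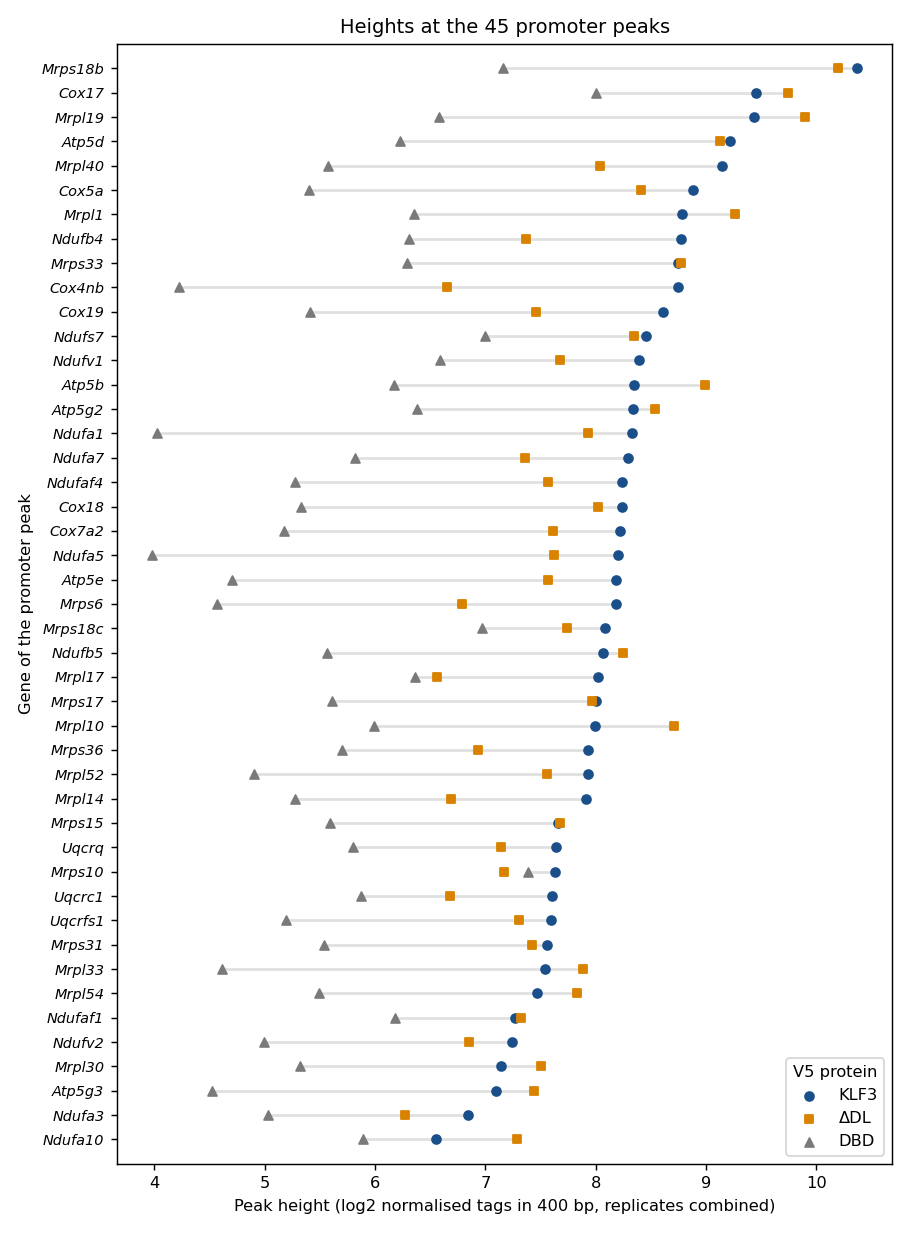
Peak heights (horizontal axis, log2 normalised tags in 400 bp, replicates combined) at the 45 family promoters, 1 line per gene in the order of the KLF3 height. Circles are KLF3, squares ΔDL and triangles DBD. The DBD height is the lowest of the 3 at all promoters but that of Mrps10, where it is 7.39 against 7.17 for ΔDL.

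At most family promoters the deposited height of ΔDL, which lacks the CtBP contact, was within 2-fold of that of KLF3. The combined ΔDL heights rest mostly on replicate 2, with 10.2 M tags against 1.77 M in replicate 1. The median difference, ΔDL minus KLF3, was -0.34 on the log2 scale, with the members around the median running from -0.57 to -0.03 (95% order-statistic interval over promoters, which are not replicates). Across all promoter peaks the median was -0.68. At 8 of 45 members the ΔDL height was lower by 2-fold or more, and at 33.7% of all promoter peaks. It was at least 2-fold higher at none of the members, and at 0.854% of all promoter peaks. Of the 45 members, 37 were in the table through the KLF3 list alone, or 82.2%, against 76.8% of all promoter peaks. Lower heights of the other proteins at these promoters are therefore partly set by how peaks entered the table. The heights are relative to each protein's own total. They were then shifted to the same median over the 2334 peaks listed for all 3 proteins, which lowered ΔDL by 1.06 and DBD by 0.42. After this, 33 of 45 members and 85.6% of all promoter peaks were at least 2-fold lower for ΔDL, and the medians were -1.40 and -1.74. Of the 2334 peaks, 2295 lay outside promoters and 39 at promoters, so the shift was set almost wholly by peaks outside promoters.

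The 8 promoters that were lower by at least 2-fold were Cox4nb, Mrpl17, Ndufb4, Mrps6, Mrpl14, Cox19, Mrpl40 and Mrps36. Cox4nb went from 431 normalised tags for KLF3 to 100.0 for ΔDL, a difference of -2.10 (95% exact counting interval -3.08 to -1.21, which covers counting error only). Ndufb4 went from 437 to 165, a difference of -1.40 (-2.14 to -0.67). Mrpl40 went from 564 to 263, a difference of -1.10 (-1.73 to -0.54). At the other end, 15 members, or 33.3%, stood higher for ΔDL than for KLF3 as deposited, against 16.1% of all promoter peaks, and none of the 15 did after the shift of the heights. The counting interval lay above 0 for 4 of these promoters and below 0 for 10 members, and it included 0 for the other 31. Over all promoter peaks it lay above 0 at 3.14%, below 0 at 49.5%, and included 0 at 47.4%. Mrpl10 rose from 254 normalised tags for KLF3 to 419 for ΔDL, a difference of 0.72 (0.17 to 1.31), and Atp5b, the catalytic beta subunit of the ATP synthase, from 326 to 508, a difference of 0.64 (0.12 to 1.14). No Mrpl or Mrps promoter fell by more than 1.46.

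By class, the median difference of ΔDL from KLF3 was 0.35 for the 10 promoters of the large ribosomal subunit and 0.20 for the 5 of the ATP synthase. It was -0.17 for the 9 promoters of the small subunit, -0.22 for the 5 of assembly factors, -0.48 for the 10 of complex I, -0.50 for the 3 of complex III and -0.54 for the 2 of complex IV. After the shift the medians of all these classes were below 0. The large subunit had both signs in plenty, with 6 promoters above KLF3 and 3 at least 2-fold below it.

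Base composition moved with these differences. The 45 member sequences had a median G+C content of 58.9%, against 63.3% over all promoter peaks. All promoter peaks were put into 4 groups of about equal size by G+C. In the lowest group, up to 57.9%, the median ΔDL difference was -0.14 and 10.2% of peaks were at least 2-fold lower. In the highest group, from 68.8%, the values were -1.21 and 61.7%. Of the members, 19 fell in the lowest group and 4 in the highest. In the lowest group 1 of 19 members was at least 2-fold lower with a median of -0.03, and in the next 2 of 19 against 22.9% of all peaks, with a median of -0.34 against -0.53. The third group held 3 members, of which 1 was lower, and all 4 members of the highest group were lower (Mrpl40, Mrpl14, Mrps6 and Cox4nb). The part of base composition in the difference between the family and the other promoters was not tested. When the promoters were split by KLF3 height instead, the lowest of 4 groups had a median ΔDL difference of -0.50 over all peaks and -0.06 over its 14 members. In the second the values were -0.67 and -0.61, over 15 members, which were close to each other, with 4 of the 15 at least 2-fold lower against 32.4% of all peaks. They were -0.76 and -0.26 in the third, over 10 members, and -0.79 and -0.13 in the highest, over 6 members.

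**Figure D2:**
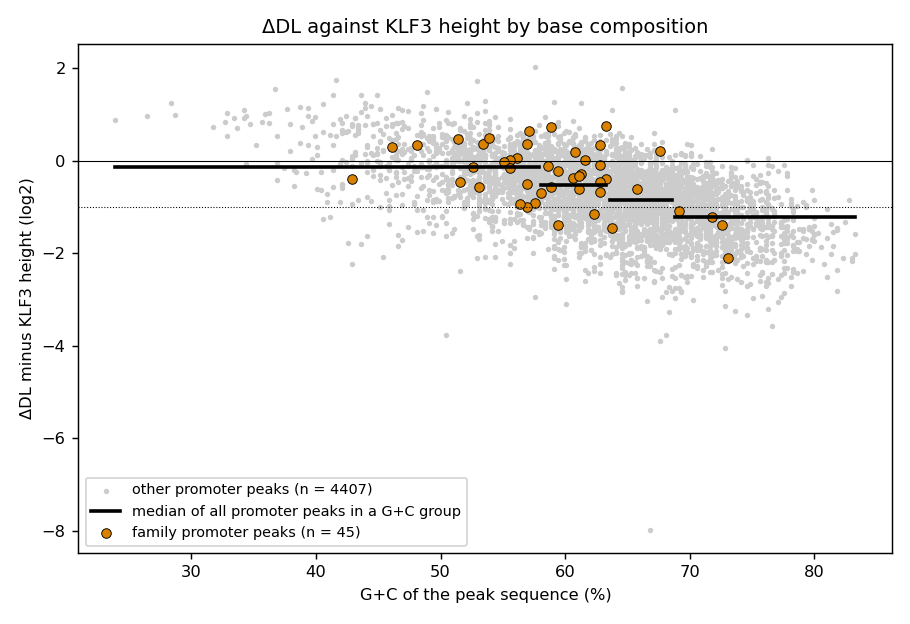
Difference in height, ΔDL minus KLF3 (vertical axis, log2), against the G+C content of the peak sequence (horizontal axis, percent), for the 45 family promoters (filled circles) and the other 4407 promoter peaks (grey). Black bars are the medians of all promoter peaks in each of 4 groups of G+C content, from -0.14 in the lowest to -1.21 in the highest, and the dotted line marks a 2-fold lower ΔDL height.

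The zinc fingers alone gave little signal at family promoters. DBD was lower than KLF3 at all 45 promoters, and at least 2-fold lower at 43 of them, against 97.3% of all promoter peaks. It was at least 2-fold higher at none, as at 0.0% of all promoter peaks. Here too the direction is partly set by how peaks entered the table, since 37 of the 45 did so through KLF3 alone. The median difference was -2.43 (order-statistic interval -2.85 to -2.02), and -2.99 over all promoter peaks. The medians after the shift of the heights were -2.85 and -3.41. The smallest DBD differences were at Mrps10 and Ndufa10, and the counting intervals of both included 0. Mrps10 had 198 KLF3, 144 ΔDL and 168 DBD normalised tags, a DBD difference of -0.24 (-0.97 to 0.49). Ndufa10 had 93.7, 156 and 59.3, a DBD difference of -0.66 (-1.84 to 0.54). Its KLF3 height, 6.55, was the lowest of the family's promoters, and no KLF3 or DBD list called it. Cox17 had the highest DBD height of the family's promoters, 256 normalised tags against 699 for KLF3, a difference of -1.45 (counting interval -1.98 to -0.95). The largest falls were at Cox4nb, from 431 to 18.6, a difference of -4.53 (-6.82 to -2.93), and at Ndufa1, an accessory subunit of complex I, from 322 to 16.2, a difference of -4.31 (-6.41 to -2.50). Both of these DBD values are close to even coverage.

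The replicate lists show in which replicates the promoters were called. KLF3 was called at the same 44 members in both replicates. This count is fixed by how peaks entered the table, since these 44 are in it as peaks found in both KLF3 replicates, so the KLF3 calls were not compared with those of the other proteins. Over all promoter peaks 96.5% were called in both KLF3 lists. ΔDL was called at 8 members in replicate 1, or 17.8%, against 25.5% of all promoter peaks. In replicate 2 it was called at 37, or 82.2%, against 73.6%. The 8 of replicate 1 were called in both lists, against 24.4% of all promoter peaks. The family share was thus below that of all promoter peaks in replicate 1 and above it in replicate 2. DBD was called at 1 member in replicate 1 and 5 in replicate 2, or 2.22% and 11.1%, against 2.74% and 3.89%, with only Cox17 in both, against 1.46%. The 8 promoters called in both ΔDL lists were Mrps18b, Cox17, Mrpl19, Atp5d, Mrps33, Atp5b and Cox18, and Ndufa10, the only family promoter in the table through ΔDL and not KLF3.

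The tag totals differed between the ΔDL replicates, with 1.77 M in replicate 1 and 10.2 M in replicate 2. The called family promoters had as few as 5 tags in replicate 1, and those of all promoter peaks as few as 4. At Mrps18b KLF3 replicates 1 and 2 had 46 and 135 tags, ΔDL 17 and 65, and DBD 10 in replicate 2, where alone it was called. At Cox17 KLF3 had 39 and 81, ΔDL 11 and 64 and DBD 19 and 15. At Mrpl19 KLF3 had 49 and 102 and ΔDL 13 and 92, with no DBD call. At Mrpl1 KLF3 had 22 and 61 tags and ΔDL 45 in ΔDL replicate 2, with no call in ΔDL replicate 1. A ΔDL call missing from replicate 1 does therefore not show that the site was free.

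**Figure D3:**
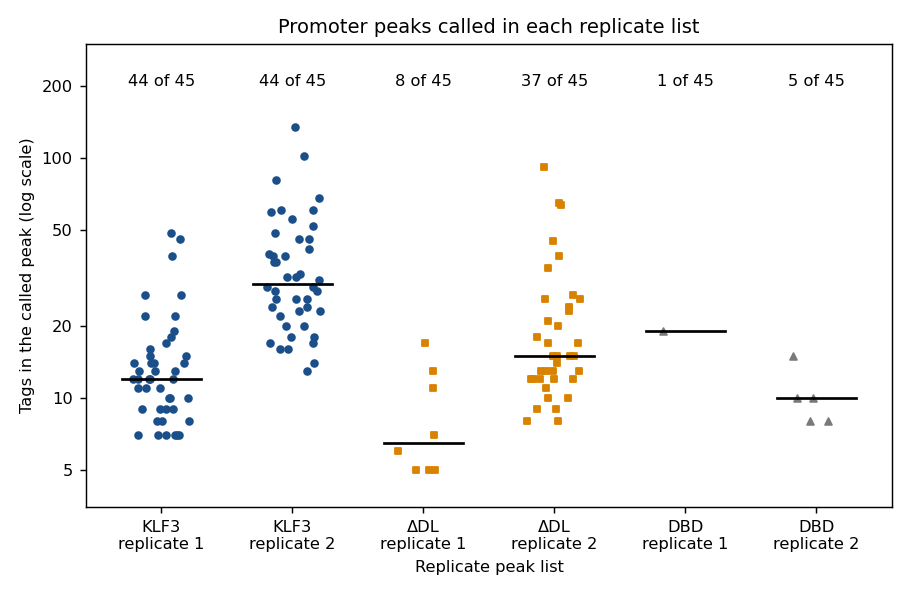
Tags in the called peak (vertical axis, log scale) at the 45 family promoters in each of the 6 replicate lists (horizontal axis). Each point is 1 promoter, the bar is the median over called promoters, and the number above gives how many were called, from 44 of 45 in both KLF3 lists to 1 of 45 in DBD replicate 1.

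The promoter peaks lay close to the start site. The centre lay within 100 bp upstream of the start site at 29 of 45 members, or 64.4%, against 46.2% of all promoter peaks. At 12 members, or 26.7%, start sites of protein-coding genes on both strands lay within 1000 bp, against 13.1% of all. At Ndufb5 the gene on the other strand was Mrpl47, so that 1 peak, with heights of 8.07, 8.25 and 5.56 in the order KLF3, ΔDL and DBD, lay at start sites of a complex I subunit and a ribosomal protein. When every annotated start site was counted, 54 of 171 family genes (31.6%) had a KLF3 peak at the promoter, and 20.6% of all genes.

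The KLF core lay within 50 bp of the centre at 31 of 45 family promoters, or 68.9% (95% Wilson interval 54.3 to 80.5), against 83.1% of all promoter peaks and 26.7% of the members' flanking windows, 400 to 500 bp away. The longer motif was found at 19 members, or 42.2% (29.0 to 56.7), against 46.5% of all promoter peaks, and in 3.33% of the members' flanks. Members with the longer motif had a median KLF3 height of 8.18 and those without it 8.13. The corresponding ΔDL differences were -0.29 and -0.36. Members with and without the longer motif differed little in height.

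Motifs of factors known to act at genes for mitochondrial proteins were also searched, on both strands and in the full 400 bp. The ERR motif AAGGTCA was found at 9 of 45 members, or 20%, against 3.48% of all promoter peaks. These 9 promoters were Atp5e, Atp5g2, Atp5g3, Cox17, Cox18, Mrps15, Mrps6, Ndufb4 and Uqcrq. The NRF1 motif GCGCATGC was found at 8, or 17.8%, against 5.46%, and the YY1 motif ATGGCGG at 12, or 26.7%, against 12.8%. The ETS motif CCGGAAG was found at 15, or 33.3%, against 21.9%. The CCAAT motif (CCAAT followed by C or G and then by A or G) went the other way, with 3 members, or 6.67%, against 24.4%. The AP-1 motif (TGANTCA with C or G at N) was at 2 members, or 4.44%, against 4.81%. In the central 100 bp the ETS motif was at 11.1% of members and 11.1% of all promoter peaks. There ERR was at 8.89% against 0.539%, NRF1 at 6.67% against 1.73% and YY1 at 4.44% against 2.09%. CCAAT was there at 4.44% against 10.6%, and AP-1 at 4.44% against 1.95%. Each motif was searched on its own, also where motifs share bases, and the longer KLF motif holds the core within it. A match is a word in the sequence and says nothing of binding, and these shares were not tested.

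**Figure D4:**
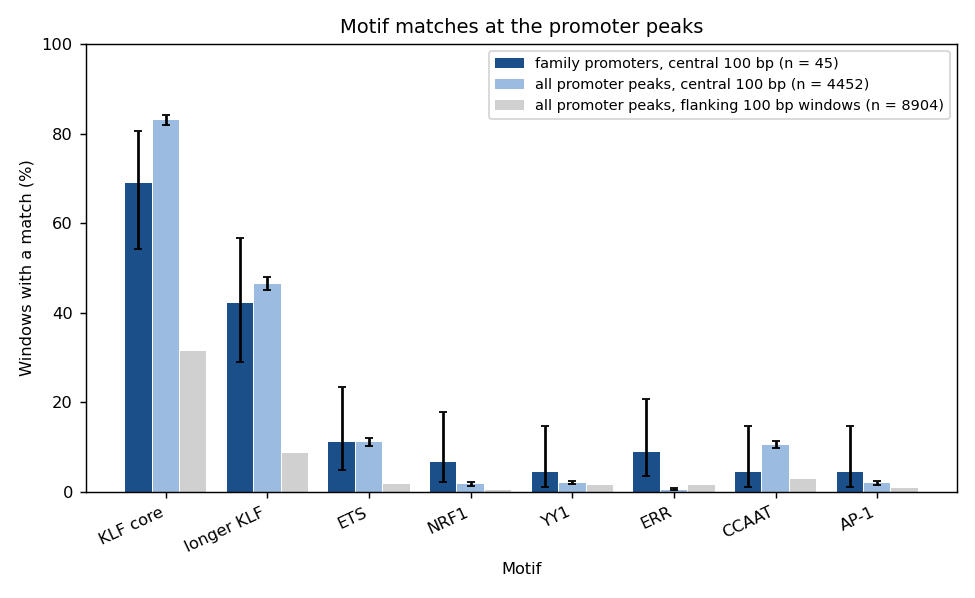
Share of windows with a motif match (vertical axis, percent) for 8 motifs in the central 100 bp of the 45 family promoters (dark), in the central 100 bp of all 4452 promoter peaks (light) and in their flanking windows (grey). Error bars are 95% Wilson intervals. The KLF core is at 68.9% of the family promoters and 83.1% of all, and the ERR motif at 8.89% and 0.539%.

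Outside promoters, the 65 members were a mixture, and the naming rule took the nearest gene at distances of up to 911694 bp. Of the 32 that lay inside an annotated transcript, 17 were inside another gene than the one they were named for. Their median KLF3 height was 7.16, that of ΔDL 7.55 and that of DBD 6.48. The ΔDL height was lower by 2-fold or more at 8 of them, or 12.3%, against 10.2% of all peaks outside promoters, and at least 2-fold higher at 25, against 35.9%. DBD was at least 2-fold lower at 27, or 41.5%, against 41.3%, and at least 2-fold higher at 4, against 4.09%. The median ΔDL difference was 0.81, against 0.77 over all such peaks, and it changed sign to -0.25 after the shift of the heights. The median DBD difference was 0.02, against 0.03, and -0.40 after the shift. In all these values the distal members were near those of all peaks outside promoters.

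The distal members fell apart by the list through which they entered the table. Those listed for KLF3 alone were 35.4% of them, against 33.8% of all peaks outside promoters. Those listed for KLF3 with or without another protein were 58.5%, against 55.6%. The split was thus near that of all such peaks, and the medians by list are given for the members only. The 23 listed for KLF3 alone had a median ΔDL difference of -0.72 and a median DBD difference of -2.65, and a median G+C content of 50.6%. The 27 listed for ΔDL or DBD and not for KLF3 had medians of 1.16 and 0.66 and a G+C content of 36.9%. The list membership uses the same signal, so these medians describe the split and do not test it. A KLF core lay in the central 100 bp of 25 of the 65 distal members, or 38.5%, against 29.4% of all distal peaks, and the AP-1 motif in 8, or 12.3%, against 9.15%. Of the 16 members more than 100 kb from the named gene, all stood higher for ΔDL than for KLF3 as deposited. Over all peaks outside promoters, at any distance, 69.0% did. All 16 were called in both ΔDL replicates and 5 in both KLF3 replicates. The direction is therefore partly set by how they entered the table. The median difference was 1.17, and the shift of the heights reduced it to 0.11. The shift was set mostly on peaks outside promoters, so a distal difference of about 1.06 is removed by construction.

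**Figure D5:**
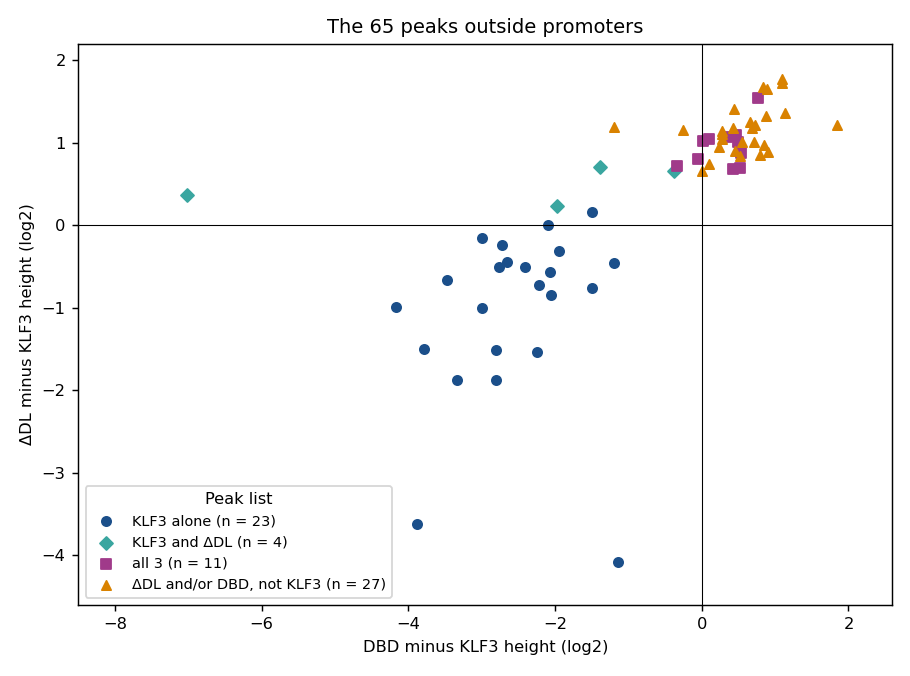
Difference in height of ΔDL from KLF3 (vertical axis, log2) against that of DBD from KLF3 (horizontal axis, log2) for the 65 members outside promoters, by the lists that named the peak. The 23 peaks listed for KLF3 alone reach at most 0.16 on the vertical axis, the 27 listed for ΔDL or DBD without KLF3 start at 0.66, and the point at -7.02 is the Mrps23 site without DBD tags.

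The highest member outside promoters was at Ndufaf3, a complex I assembly factor, in its 5′ UTR 212 bp past the start site. KLF3 had 484 normalised tags there, ΔDL 242 and DBD 61.0. The next were 50707 bp upstream of Ndufb4 with a KLF3 height of 8.70, 37978 bp upstream of Atp5o with 8.68, 7618 bp upstream of Mrpl33 with 8.57 and 10090 bp upstream of Cox6a1 with 8.46. All of these were listed for KLF3 alone. At the site upstream of Ndufb4, DBD had 181 normalised tags against 416 for KLF3, with no DBD call in either replicate.

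Mrpl33, a protein of the large ribosomal subunit, had 7 peaks within 58.6 kb, 1 of them at its promoter and 3 in introns of Rbks, the ribokinase gene beside it. KLF3 heights ran from 7.54 to 8.57 and ΔDL heights from 7.68 to 8.37. All 7 were listed for KLF3 alone, and the DBD difference was between -3.48 and -1.50 at all of them. The ΔDL difference was between -0.66 and 0.34. Ndufb4 had 3 peaks, with ΔDL differences of -1.40 at the promoter, -1.88 at the site 21771 bp upstream and -0.45 at the site 50707 bp upstream.

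Cox7c, a small complex IV subunit gene, was the nearest gene to 9 intergenic peaks, none closer than 185820 bp. All 9 were listed for ΔDL, and none for KLF3 alone. ΔDL stood above KLF3 at all 9, by 0.66 to 1.55 as deposited, a range that spans 0 once the heights are shifted. The peaks that set the shift lie mostly outside promoters and include some of these sites, so such a difference is largely removed by construction. The G+C content of these sites ran from 22.7 to 39.4%, and 1 held a KLF core in the centre. The farthest was the highest, where KLF3 had 209 normalised tags, ΔDL 613 and DBD 357. Every one of the 6 replicate lists called it, KLF3 with 24 and 29 tags, ΔDL with 27 and 52, and DBD with 29 and 31. At distances like these the gene name is only that of the nearest start site.

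DBD listed 21 members, 20 of them outside promoters and 1, Cox17, at a promoter. The 20 are 30.8% of the members outside promoters, near the 27.6% of all such peaks. At promoters the shares were 2.22% and 1.44%. The highest was 4048 bp upstream of Cox8c, where KLF3 had a height of 8.39, ΔDL 9.27 and DBD 8.92. In replicates 1 and 2 the calls held 26 and 43 KLF3 tags, 32 and 46 ΔDL tags, and 47 and 32 DBD tags. The centres of the 3 highest DBD sites outside promoters are given for comparison with those of the promoters.
Cox8c, chr12:104133418-104133517: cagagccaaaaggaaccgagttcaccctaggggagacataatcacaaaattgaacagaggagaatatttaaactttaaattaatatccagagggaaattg
Cox7c, chr13:87098044-87098143: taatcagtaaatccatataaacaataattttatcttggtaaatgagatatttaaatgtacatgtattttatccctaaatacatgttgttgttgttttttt
Cox7b2, chr5:71984443-71984542: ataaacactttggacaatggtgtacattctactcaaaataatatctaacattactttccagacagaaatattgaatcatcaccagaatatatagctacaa
None of these stretches held a KLF core, and their G+C content was 37%, 21% and 29%. Of the other DBD-listed sites outside promoters, those near Mrpl15, Mrpl53 and Mrps31 held a core in the centre and the rest did not. Over all peaks outside promoters 29.4% held one there. The Cox7b2 site lay in an intron of Gabra4, a neurotransmitter receptor gene, and had heights of 7.37, 8.44 and 7.71 for KLF3, ΔDL and DBD. The other DBD-listed sites were near Cox18, Mrpl15, Mrpl22, Mrpl24, Mrpl3, Mrpl53, Mrps22, Mrps28, Mrps31, Mrps33 and Ndufb5, at 3 sites near Ndufb2 and at 3 more near Cox7c. Their DBD heights ran from 6.94 to 7.64. The site near Mrpl24 was the only member in the DBD list and no other, with 41.1 KLF3, 95.7 ΔDL and 148 DBD normalised tags, and it lay in the 3′ UTR of the neighbouring gene Hdgf. Mrpl24 also had a ΔDL peak in its own 5′ UTR, 126 bp past the start site, with 126 KLF3, 288 ΔDL and 55.3 DBD normalised tags.

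The largest falls of ΔDL among all members were outside promoters. At Mrpl48, 337 bp past the start site, KLF3 had 147 normalised tags and ΔDL 8.69, about 1 tag, which is no more than the random part of a height, a difference of -4.08 (counting interval -9.45 to -1.53), whereas DBD had 66.7. In intron 1 of Mrpl14 KLF3 had 324, ΔDL 26.4 and DBD 22, a ΔDL difference of -3.62 (-5.99 to -2.08). Both lie in genes whose proteins belong to the large ribosomal subunit, and neither site was called in a ΔDL list. Their centres are shown for the KLF core, which both hold.
Mrpl48, chr7:107731257-107731356: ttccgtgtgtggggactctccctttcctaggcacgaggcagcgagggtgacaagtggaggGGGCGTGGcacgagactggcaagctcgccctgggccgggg
Mrpl14, chr17:45832210-45832309: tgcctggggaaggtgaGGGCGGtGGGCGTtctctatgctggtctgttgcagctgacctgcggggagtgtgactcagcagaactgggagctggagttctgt
At a site 31198 bp from Mrps23 the pattern was the other way, with 202 KLF3 and 261 ΔDL normalised tags and no DBD tag. A count of 0 allows up to 3 tags, or 18.7 normalised. With the counting error of KLF3 included, the interval of the DBD difference ended at -3.07. The largest rises of ΔDL were at Mrps30 (1.77), Mrpl15 (1.73), Mrps23 (1.68), Ndufa4 (1.66) and Cox7c (1.55), all distal and all with KLF3 heights of at most 7.71. After the shift of the heights these were 0.71, 0.67, 0.62, 0.6 and 0.49. All but the Cox7c site were not listed for KLF3 and reached a height of 7 only for ΔDL. The falls at Mrpl48 and Mrpl14 were at sites listed for KLF3 alone. These rises and falls are therefore partly set by how the sites were chosen.

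Genes that work beside the family were also looked at by their promoters. Of 45 such genes, among them factors of mitochondrial transcription and translation, 14 (31.1%) had a KLF3 promoter peak, against 17.5% of all protein-coding genes. Here too the comparison was not limited to genes active in these cells. As deposited, the ΔDL height was lower by 2-fold or more at 2 of these 14, against 33.7% of all promoter peaks, with a median difference of -0.24 against -0.68. The count depends on the scaling. The shift of the heights, which moved the family count from 8 to 33 of 45, was not applied here. DBD was lower by 2-fold or more at 14 of 14, near the 97.3% of all promoter peaks, with a median of -2.55 against -2.99. The 14 were taken for their KLF3 peak, which partly sets the direction of these differences. The 2 with a lower ΔDL height were Tfb2m, a mitochondrial transcription factor, with 481 normalised tags for KLF3 and 175 for ΔDL, and Tfam, which packages mitochondrial DNA, with 158 and 77.2. Bcs1l, a complex III assembly factor, had the highest KLF3 height of these, 9.82, with 9.84 for ΔDL and 5.11 for DBD. Polg2, a subunit of the mitochondrial DNA polymerase, had 8.98, 9.15 and 6.62 in the same order.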

How the data were processed

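ChIP-seq was performed with an anti-V5 antibody in 2 replicates per protein. The authors aligned reads to mm9 with Bowtie2 2.0.0, used SAMtools 0.1.18, and called peaks on each replicate against its input with HOMER 4.1, per the labels and the methods. The deposited heights are log2 tag numbers in 400 bp, both replicates combined, scaled to 100 M tags. Each replicate's peak list gives a signal, the tags in the peak, which the authors scaled in the same way, and each value is a whole multiple of 1 tag, from which tags were recovered. The deposited G+C values are a fraction of the peak sequence, and they matched the mm9 sequence to within 0.01 at 10820 of 10820 peaks. The conservation score that the authors deposited was not used for a result. The heights hold a small random part: the same interval differed between 2 deposited tables by a median of 0.01 to 0.02 on the log2 scale, and by at most 1.03 to 1.33 tags among low heights, so values of few tags are uncertain by that much.

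The members, gene lists and motifs were chosen with earlier results of these data known. No count model was fitted, since the combined heights have 1 value per protein. Promoter follows the authors' annotation, and a call in a replicate list needed 1 bp of overlap. A 2-fold difference was the call rule. Genes named are the highest KLF3 promoter of each class, the 10 highest, the largest rises and falls among members with a KLF3 or ΔDL height of at least 7, those listed for DBD, those with several peaks and the 5 highest outside promoters. Other names, with the split by G+C content and by height, were chosen after their values were seen. The central sequence was printed for 3 of the 20 DBD-listed sites outside promoters, and for the 2 largest ΔDL falls. Gene totals come from GENCODE protein-coding genes on mm9, which held all 72 member names, and names of host genes from RefSeq (GRCm38.p6, names only). A planned permutation test of calls per list is not reported, since the KLF3 calls are fixed by how peaks entered the table. Intervals are 95%, Wilson for shares, exact for ratios of tags and by order statistics for medians. The input libraries were used only through the authors' peak calling. The code used scipy 1.17.1, pysam 0.24.0, pandas 2.3.3, matplotlib 3.10.9, numpy 2.4.6 and Python 3.11.15.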

Additional observations from a re-analysis of the deposited data

How the results depend on the processing

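Over 63 alternative values, 46 kept their direction and stayed near the reported value, 13 moved and 4 changed sign. The 46 include the KLF3 calls, which are fixed by how peaks entered the table, and the comparison of calls per list, which is not reported. They therefore overstate how stable the results are. Equal medians over the shared peaks moved the count of promoters at least 2-fold lower for ΔDL from 8 to 33 and their median from -0.34 to -1.40, and the count outside promoters from 8 to 22, against 32.3% of all such peaks. The shared peaks lie mostly outside promoters. The same shift turned the medians outside promoters from 0.81 to -0.25 for ΔDL and from 0.02 to -0.40 for DBD. Among peaks listed for KLF3 these medians were -0.28 and -2.01, a rule that keeps only sites high in KLF3. With a 1.5-fold or 3-fold rule the ΔDL counts were 14 and 1 at promoters, against 55.7% and 13.1% of all promoter peaks, and 13 and 4 elsewhere, against 17.7% and 3.74%. Promoters called in both ΔDL replicates numbered 5 with the upper 50% of each list, and from 8 to 37 when either replicate was left out. Leaving out a replicate gave 44 and 44 for KLF3 and from 1 to 5 for DBD. The KLF core share was 93.3% over all 400 bp and 42.2% with the longer motif, against 97.0% and 46.5% of all promoter peaks. The share of family genes with a KLF3 promoter peak was 28.1 to 49.1% when a replicate was left out, 49.1% without replicate 1. A planned overlap of 50% of the 400 bp interval could not be run, since the widest replicate peaks span 142 bp. An overlap of 50% of the replicate peak and the count over all start sites, both chosen after seeing the data, changed no count by more than 1.5 times. No paired analysis was possible because the heights combine both replicates and the lists hold only called peaks. Depth limits the ΔDL calls of replicate 1, which rest on 1.77 M tags.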
